A study of Mus musculus with 12 samples.

Results

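The surfactant and alveolar epithelial genes are 10 markers of the cells that line the air sacs of the lung. Alveolar type 2 (AT2) cells were represented by Sftpa1, Sftpb, Sftpc, Sftpd, Abca3 and Lamp3, and alveolar type 1 (AT1) cells by Ager, Pdpn, Aqp5 and Hopx. Members were all probe sets annotated with exactly 1 of these 10 symbols, which gave 15 of the 45101 probe sets on the array and 9 of the 17569 genes tested. The AT2 genes had 9 probe sets for 5 genes and the AT1 genes 6 probe sets for 4 genes. The only probe set naming Lamp3 also named Ppid, so the signal of Lamp3 was not analysed here. All 15 probe sets passed the filter on low signal.

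AT2 cells make surfactant, a film of phospholipid and protein that lowers surface tension at the air-liquid border, and they can renew the epithelium after injury. They assemble the film in lamellar bodies, which take up phospholipid through the transporter ABCA3. SP-B and SP-C spread the lipid film, whereas the collectins SP-A and SP-D bind microbes and lipid. AT1 cells are broad and flat, cover most of the surface where gas is exchanged, and are a known early target of inhaled ozone (O3).

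Total RNA came from left lung homogenates of 12 male mice aged 6 to 8 weeks, with 1 mouse per array and 3 mice in each of 4 groups. The groups were Nfkb1-deficient mice after 0.3 ppm O3 for 48 h (Nfkb1KO-O3), wild-type mice after the same O3 (WT-O3), Nfkb1-deficient mice kept in filtered air (Nfkb1KO-Air) and wild-type mice kept in filtered air (WT-Air). Nfkb1-deficient mice (Nfkb1-/-, B6;129P-Nfkb1tm1Bal/J) lack the NF-kB p50/p105 subunit in every cell, and the wild-type mice (Nfkb1+/+) were B6129PF2/J, so that each genotype was a separately bought stock of mixed background. Air controls were held in a chamber of their own in parallel. Because the arrays measured whole lung, fewer cells of a type and less RNA per cell cannot be told apart. Nor do they show which cells gave the signal of a gene, so AT2 and AT1 name lists of genes here.

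Median deposited signal was 99.1 to 121 on 11 arrays and 180.1 on Nfkb1KO-Air replicate 1, and WT-Air replicate 3 stood apart in skeletal muscle RNA (Myh4 log2 signal 12.31, against 0.67 to 7.94 on the other arrays). The annotation named 0 probe sets for Nfkb1, so the genotype labels were not checked against the targeted gene. Alveolar markers were strong on every array. On average over the arrays, between 0.0200% and 1.85% of all probe sets were brighter than the brightest probe set of 8 of the 9 genes, and 4.92% were brighter than that of Pdpn. Replicates of those 8 genes were close together, with a residual standard deviation (SD) of 0.053 to 0.116 on the log2 scale, against a median of 0.160 over genes above the median level and 0.271 over all genes. Pdpn was the exception, with a residual SD of 0.353.

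Upstream sequence is shown for Sftpa1, Sftpb and Hopx, because these windows hold the letters of a motif of NKX2-1, the transcription factor known for driving surfactant protein genes. Promoter sequences were matched for 8 of the 10 symbols in RefSeq (GRCm38.p6), and not for Sftpc and Sftpd. Each of the 3 runs covers the 250 bases before an annotated transcription start, read 5′ to 3′ along the gene, and capitals mark CTCAAG or its reverse complement CTTGAG.
Sftpa1, chr14:41131538-41131787, plus strand: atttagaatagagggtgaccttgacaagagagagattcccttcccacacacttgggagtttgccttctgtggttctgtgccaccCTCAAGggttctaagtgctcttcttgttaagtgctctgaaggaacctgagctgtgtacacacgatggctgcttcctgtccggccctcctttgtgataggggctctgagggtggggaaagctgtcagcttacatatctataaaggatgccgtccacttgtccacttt
Sftpb, chr6:72304360-72304609, plus strand: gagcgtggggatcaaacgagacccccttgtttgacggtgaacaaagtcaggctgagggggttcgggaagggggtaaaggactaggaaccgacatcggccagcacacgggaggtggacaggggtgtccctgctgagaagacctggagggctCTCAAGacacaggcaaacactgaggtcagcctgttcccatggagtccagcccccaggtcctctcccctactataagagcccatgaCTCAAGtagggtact
Hopx, upstream start, chr5:77115124-77115373, minus strand: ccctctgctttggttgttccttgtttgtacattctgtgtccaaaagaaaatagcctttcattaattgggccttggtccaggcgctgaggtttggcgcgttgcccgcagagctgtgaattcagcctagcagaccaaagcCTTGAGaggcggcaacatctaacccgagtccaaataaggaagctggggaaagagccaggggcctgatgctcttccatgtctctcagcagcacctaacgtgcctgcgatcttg
Sftpb held 2 matches, which began 100 and 15 bases before the start. Sftpa1 held 1, from 166 bases before the start, and the upstream of the 2 annotated Hopx starts held 1 on the opposite strand, from 112 bases before it. These were 3 of the 9 promoter windows of the members, and 13.3% of all 32851 windows of the same length held the motif on either strand. The second match of Sftpb overlapped an AP-1 motif, TGANTCA, which began 18 bases before the start and was present in 6.75% of all windows. Among the other motifs searched on both strands, the forkhead motif TGTTTAC was found at Pdpn and Lamp3 (3.17% of all windows), the TEAD motif CATTCC at Abca3 and Lamp3 (12.6%), and the 10-letter NF-kB consensus in 0 of the 9 windows (0.356%).

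Of the 9 measured genes, Hopx was the only one called in the comparisons of O3 with air within a genotype, where called means an adjusted p below 0.05 over all genes in limma. It rose 1.28-fold in Nfkb1-deficient lungs and 1.25-fold in wild-type lungs. In all, 3.35% of genes were called higher after O3 in Nfkb1-deficient mice and 3.16% in wild-type mice, against 1 of 9 members in each, and 0 members were called lower, against 2.83% and 2.24% of all genes. Without adjustment, p was below 0.05 for 4 of 9 members in each genotype, against 21.5% of all genes in Nfkb1-deficient mice and 19.7% in wild-type mice. Neither comparison of genotypes nor the interaction, which is the O3 difference in Nfkb1-deficient mice minus that in wild-type mice, called any of the 9. For the interaction, p was below 0.05 without adjustment for 0 of 9 members too, against 6.06% of all genes, and 0.0342% of genes were called. The plot of log2 signal by array shows all 9 genes.

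**Figure D1:**
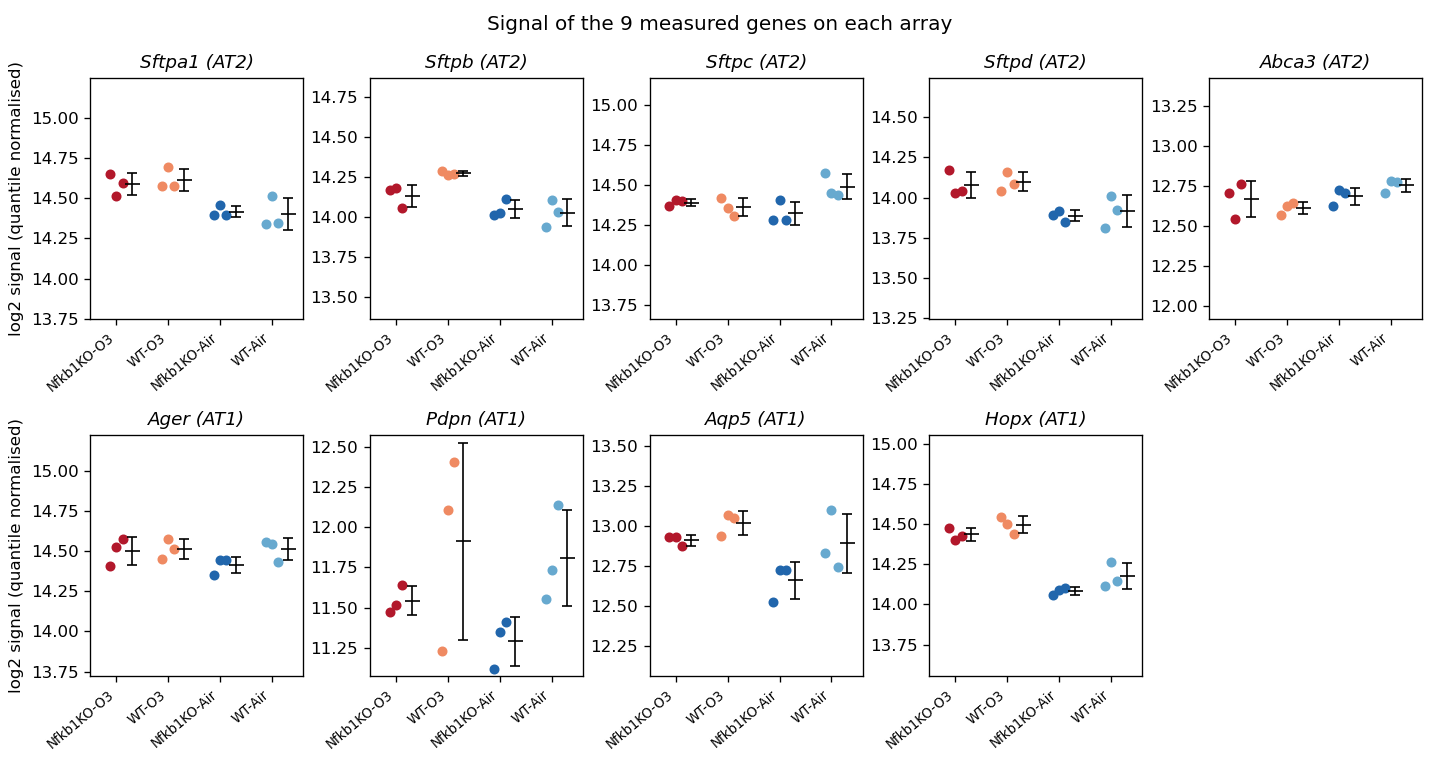
Log2 signal of the brightest probe set of each of the 9 genes (vertical axis, 1.5 log2 units in every panel, quantile normalised) on each of 3 arrays in the 4 groups. Points are arrays and the bar beside them is the mean with its SD; Hopx arrays after O3 lie at 14.40 to 14.55 and air arrays at 14.06 to 14.27, while Pdpn spreads over 11.23 to 12.41 within WT-O3.

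Hopx encodes an atypical homeodomain protein that does not bind DNA and is used as a marker of AT1 cells. Its log2 signal was 14.48, 14.40 and 14.43 in Nfkb1KO-O3 lungs, 14.55, 14.50 and 14.44 in WT-O3 lungs, 14.06, 14.09 and 14.10 in Nfkb1KO-Air lungs, and 14.12, 14.27 and 14.15 in WT-Air lungs. Every O3 array was above every air array. The O3 difference was 0.35 ± 0.06 (log2, SE, adjusted p = 0.00801, limma) in Nfkb1-deficient mice and 0.32 ± 0.06 (adjusted p = 0.0142) in wild-type mice, and these differed by 0.03 (95% interval -0.16 to 0.23). Counted within each array, which no scaling between arrays can alter, 15 to 26 probe sets were brighter than Hopx in Nfkb1KO-O3 lungs and 9 to 20 in WT-O3 lungs, against 100 to 116 in Nfkb1KO-Air and 53 to 95 in WT-Air lungs.

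A second Hopx probe set, 1451776_s_at, showed a larger rise. Its log2 signal was 13.61, 13.66 and 13.64 in Nfkb1KO-O3 lungs and 13.86, 13.83 and 13.64 in WT-O3 lungs, against 12.97, 13.01 and 13.03 in Nfkb1KO-Air and 13.02, 13.41 and 13.00 in WT-Air lungs. The groups were again apart, with an O3 difference of 0.63 ± 0.10 in each genotype, or 1.55-fold (adjusted p = 0.00561 and 0.00565 over all probe sets, limma). Of the 15 probe sets, these 2 of Hopx were called higher in each genotype, against 2.23% of all probe sets in Nfkb1-deficient and 2.15% in wild-type mice. With the deposited scaling kept, this probe set was still called in Nfkb1-deficient (0.73, adjusted p = 0.00517) and wild-type mice (0.61, adjusted p = 0.0135). The brighter Hopx probe set, 1428662_a_at, then lost its call in wild-type mice (0.17 ± 0.09, adjusted p = 0.29) and kept it in Nfkb1-deficient mice (0.42, adjusted p = 0.0145). Its call in wild-type mice was also lost when any 1 of WT-Air replicates 1 and 3 or WT-O3 replicates 1 and 2 was left out (0.29 to 0.32, adjusted p = 0.0539 to 0.0679), and no call of either probe set within a genotype held with arrays centred on their medians. Calls were fewer over all genes with that centring. It left 289 genes called higher after O3 in Nfkb1-deficient and 76 in wild-type mice, against 589 and 555 without it.

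**Figure D2:**
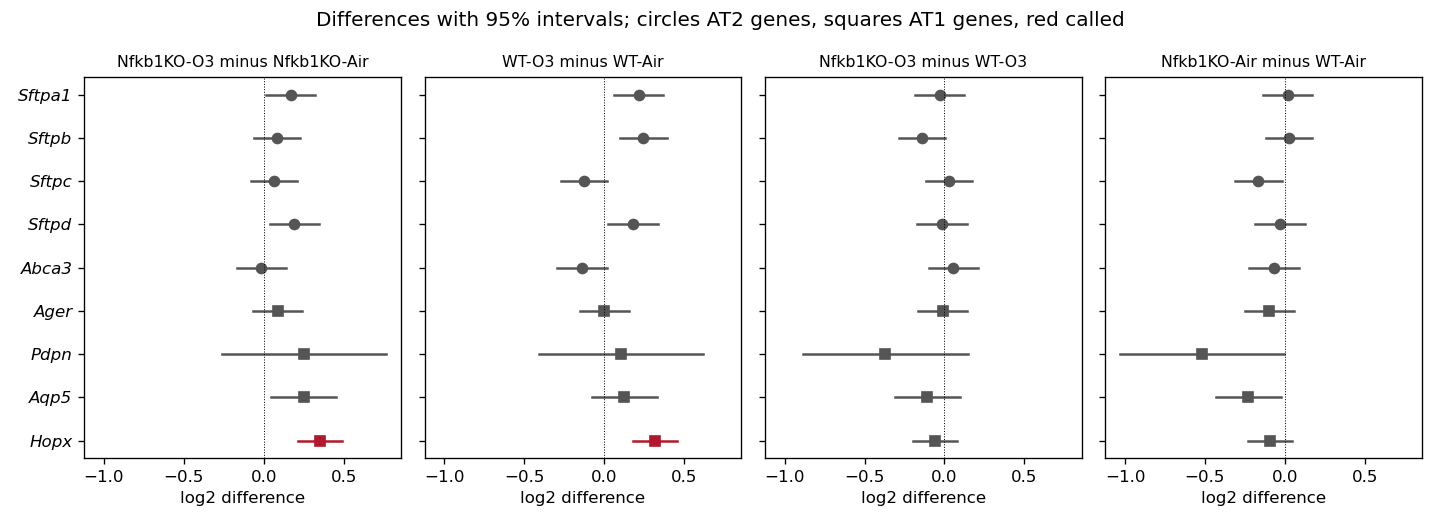
Log2 difference of each of the 9 genes (horizontal axis) with its 95% interval from limma, in 4 panels: O3 against air in Nfkb1-deficient and in wild-type mice, then Nfkb1-deficient against wild-type mice after O3 and in air. Circles are AT2 genes, squares AT1 genes and red marks an adjusted p below 0.05, which Hopx alone reached, at 0.35 and 0.32.

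No surfactant protein gene was called for O3 within a genotype. The brightest probe sets of Sftpa1, Sftpb and Sftpd had positive O3 differences in both genotypes, between 0.08 and 0.25 on the log2 scale, and that of Sftpc had 0.07 in Nfkb1-deficient and -0.13 in wild-type mice. Sftpa1 encodes SP-A, the most plentiful surfactant protein. Its log2 signal was 14.65, 14.51 and 14.60 in Nfkb1KO-O3 lungs, 14.58, 14.69 and 14.58 in WT-O3 lungs, 14.40, 14.46 and 14.40 in Nfkb1KO-Air lungs, and 14.34, 14.51 and 14.35 in WT-Air lungs. O3 and air arrays did not overlap within either genotype. The O3 difference was 0.17 ± 0.07 (adjusted p = 0.187) in Nfkb1-deficient mice and 0.22 ± 0.07 (adjusted p = 0.106) in wild-type mice. In wild-type mice it passed the threshold in 1 of 25 alternatives, without WT-Air replicate 2 (0.27, adjusted p = 0.0475). Over the 13 alternatives other than leaving out 1 array, the wild-type value was 0.04 to 0.24 (adjusted p = 0.053 to 0.942, limma). Only 4 to 11 probe sets were brighter in Nfkb1KO-O3 and 3 to 7 in WT-O3 lungs, against 17 to 27 in Nfkb1KO-Air and 11 to 37 in WT-Air lungs.

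Sftpd encodes SP-D. Signals on the log2 scale were 14.17, 14.03 and 14.04 in Nfkb1KO-O3 lungs, 14.04, 14.16 and 14.09 in WT-O3 lungs, 13.89, 13.92 and 13.85 in Nfkb1KO-Air lungs, and 13.81, 14.01 and 13.93 in WT-Air lungs. All 6 O3 arrays were above all 6 air arrays, by 0.19 ± 0.07 in Nfkb1-deficient mice (adjusted p = 0.14) and 0.18 ± 0.07 in wild-type mice (adjusted p = 0.178).

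Sftpb encodes SP-B, without which lamellar bodies do not form and breathing fails at birth. The gene was measured at log2 signals of 14.17, 14.18 and 14.05 in Nfkb1KO-O3 lungs, 14.29, 14.26 and 14.27 in WT-O3 lungs, 14.01, 14.03 and 14.11 in Nfkb1KO-Air lungs, and 13.94, 14.11 and 14.03 in WT-Air lungs. The 3 WT-O3 arrays were closely grouped above all others, whereas Nfkb1KO-O3 and Nfkb1KO-Air arrays overlapped. The O3 difference was 0.08 ± 0.07 (adjusted p = 0.526) in Nfkb1-deficient mice and 0.25 ± 0.07 (adjusted p = 0.0523) in wild-type mice. The difference between these was -0.16 (95% interval -0.37 to 0.04, adjusted p = 0.836), so a genotype effect on the O3 difference was not shown. The wild-type value passed the threshold with array weights (adjusted p = 0.0278), with the stricter filter (0.0441) and without WT-Air replicate 2 (0.0392). It did so in these 3 of 25 alternatives. Over the 13 alternatives other than leaving out 1 array, it was 0.13 to 0.26 (adjusted p = 0.0278 to 0.875, limma).

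Sftpc encodes SP-C, made by AT2 cells alone. Log2 signals were 14.37, 14.41 and 14.40 in Nfkb1KO-O3 lungs, 14.42, 14.35 and 14.31 in WT-O3 lungs, 14.28, 14.41 and 14.28 in Nfkb1KO-Air lungs, and 14.58, 14.45 and 14.44 in WT-Air lungs. WT-Air lungs were the highest, and every array of the other groups lay below them. The O3 difference was 0.07 ± 0.07 (adjusted p = 0.613) in Nfkb1-deficient mice and -0.13 ± 0.07 (adjusted p = 0.314) in wild-type mice, and the interaction was 0.20 (95% interval -0.01 to 0.40, adjusted p = 0.818). A dim second probe set, 1438290_x_at, lay at 4.90 to 6.19 on all arrays and gave -0.17 ± 0.38 and -0.75 ± 0.38 in the same order of genotypes (adjusted p = 0.868 and 0.363).

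Abca3, the lamellar body lipid transporter, had a log2 signal of 12.71, 12.54 and 12.76 in Nfkb1KO-O3 lungs, 12.57, 12.63 and 12.64 in WT-O3 lungs, 12.62, 12.72 and 12.70 in Nfkb1KO-Air lungs, and 12.70, 12.78 and 12.77 in WT-Air lungs. WT-O3 arrays were all below WT-Air arrays, and the Nfkb1-deficient groups overlapped. The O3 difference was -0.01 ± 0.07 (adjusted p = 0.935) in Nfkb1-deficient mice and -0.14 ± 0.07 (adjusted p = 0.31) in wild-type mice. Its second probe set, 1425496_at, had the opposite sign in both (0.13 ± 0.12 and 0.08 ± 0.12, adjusted p = 0.611 and 0.835), and another dim one, 1451869_at, gave -0.26 ± 0.33 and -0.19 ± 0.33 (adjusted p = 0.741 and 0.854).

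Probe sets of 1 gene also disagreed for Sftpa1, whose dimmer probe set 1429626_at gave -0.13 ± 0.13 in Nfkb1-deficient and -0.12 ± 0.13 in wild-type mice (adjusted p = 0.634 and 0.723). The small differences of Sftpa1 and Abca3 thus had a sign that depended on the probe set, whereas both Hopx probe sets rose in each genotype.

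**Figure D3:**
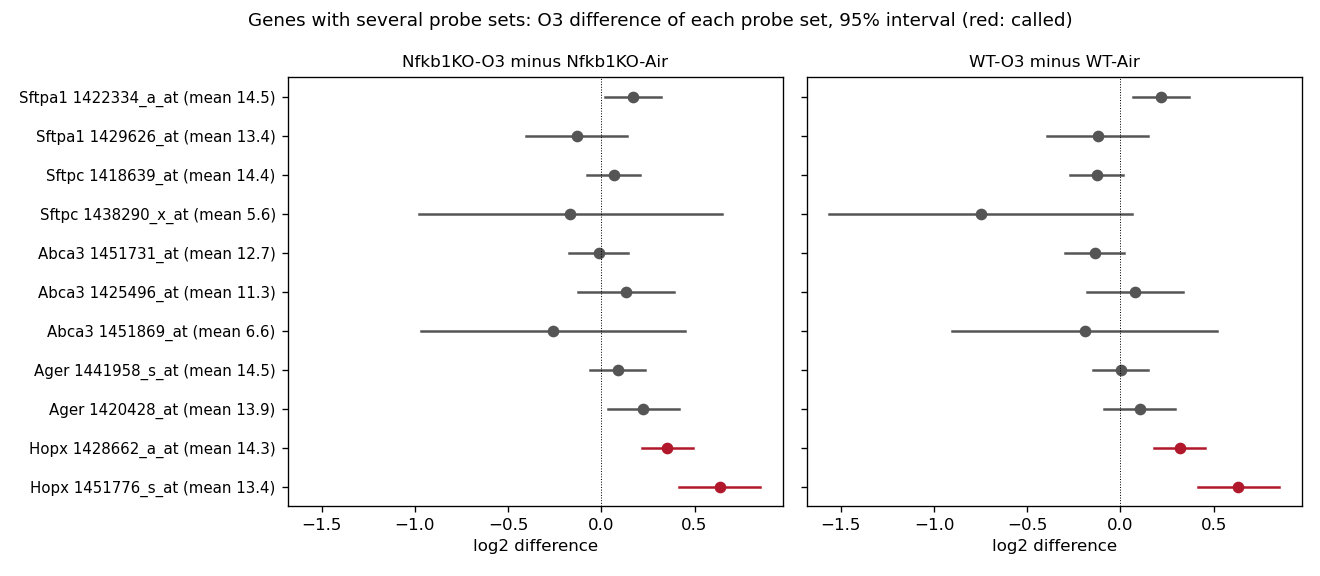
O3 against air for every probe set of the 5 genes that have several: log2 difference (horizontal axis) with its 95% interval, in Nfkb1-deficient mice on the left and wild-type mice on the right, with each probe set's mean log2 signal beside its name. Red marks an adjusted p below 0.05, which both Hopx probe sets reached in both genotypes (0.35 and 0.63 on the left, 0.32 and 0.63 on the right).

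Among the other AT1 genes, Ager encodes RAGE, a membrane receptor that AT1 cells carry at high level on the basal side. The log2 signals of Ager were 14.41, 14.52 and 14.58 in Nfkb1KO-O3 lungs, 14.45, 14.58 and 14.51 in WT-O3 lungs, 14.35, 14.44 and 14.44 in Nfkb1KO-Air lungs, and 14.56, 14.55 and 14.43 in WT-Air lungs. All 4 groups overlapped with at least 1 other. The O3 difference was 0.09 ± 0.07 (adjusted p = 0.516) in Nfkb1-deficient mice and 0.001 ± 0.070 (95% interval -0.15 to 0.15) in wild-type mice. The dimmer Ager probe set, 1420428_at, gave 0.23 ± 0.09 (adjusted p = 0.194) and 0.10 ± 0.09 (adjusted p = 0.657).

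Aqp5 encodes aquaporin 5, a water channel of the apical membrane. The gene had log2 signals of 12.93, 12.93 and 12.87 in Nfkb1KO-O3 lungs, 12.94, 13.07 and 13.05 in WT-O3 lungs, 12.53, 12.73 and 12.73 in Nfkb1KO-Air lungs, and 12.83, 13.10 and 12.74 in WT-Air lungs. Arrays of the Nfkb1-deficient groups did not overlap (0.25 ± 0.09, adjusted p = 0.14), and those of the wild-type groups did (0.13 ± 0.09, adjusted p = 0.509).

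Pdpn encodes podoplanin, a glycoprotein of AT1 cells that lymphatic endothelium also carries. It had log2 signals of 11.47, 11.52 and 11.64 in Nfkb1KO-O3 lungs, 11.23, 12.11 and 12.41 in WT-O3 lungs, 11.12, 11.35 and 11.41 in Nfkb1KO-Air lungs, and 11.55, 11.73 and 12.14 in WT-Air lungs. WT-O3 arrays alone spanned most of the range of the gene. O3 differences were 0.25 ± 0.24 (adjusted p = 0.591) in Nfkb1-deficient and 0.11 ± 0.24 (adjusted p = 0.863) in wild-type mice. Of 5 measured lymphatic endothelial markers, 0 were called in either, and their summed normalised signal was 8188 to 9973 in Nfkb1KO-O3, 7320 to 8238 in WT-O3, 7161 to 9145 in Nfkb1KO-Air and 6711 to 11376 in WT-Air lungs. Their part in the Pdpn values was not tested.

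Over both genotypes together, a comparison added after the data were seen, 6 O3 arrays were set against 6 air arrays in the same fit. Hopx (0.34 ± 0.05, adjusted p = 0.000489), Sftpa1 (0.19 ± 0.05, adjusted p = 0.0222), Sftpd (0.19 ± 0.05, adjusted p = 0.0267) and Sftpb (0.16 ± 0.05, adjusted p = 0.0345) rose, or 4 of 9 members against 7.7% of all genes called higher. Aqp5 was just outside the threshold (0.19 ± 0.07, adjusted p = 0.0758). The values of Pdpn (0.18 ± 0.17), Ager (0.04 ± 0.05), Sftpc (-0.03 ± 0.05) and Abca3 (-0.08 ± 0.05) were not called. These rises were small, 1.14-fold for Sftpa1 and Sftpd and 1.12-fold for Sftpb, against 1.26-fold for Hopx. Over 24 alternatives the call of Hopx was kept in 23, of Sftpa1 and Sftpd in 15 each and of Sftpb in 10, and all 3 surfactant protein genes lost it with the deposited scaling kept (adjusted p = 0.131, 0.0636 and 0.118 for Sftpa1, Sftpd and Sftpb).

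AT2 and AT1 genes did not part cleanly after O3. The median O3 difference in Nfkb1-deficient mice was 0.08 for the 5 AT2 genes and 0.25 for the 4 AT1 genes, against -0.01 over all genes. In wild-type mice it was 0.18 and 0.12, against -0.03. In Nfkb1-deficient mice 5 of 9 members had all O3 arrays above all air arrays (13.1% of all genes) and 0 had them all below (12.3%). In wild-type mice 4 of 9 had them all above (13.5%), and Sftpc and Abca3 all below (14.1% of all genes). As the plot of AT2 against AT1 deviations shows, the mean deviation of the AT2 genes from WT-Air was 0.06 ± 0.04 in Nfkb1KO-O3, 0.08 ± 0.02 in WT-O3 and -0.04 ± 0.03 in Nfkb1KO-Air lungs (SD, n = 3), while that of the AT1 genes was 0.00 ± 0.03, 0.14 ± 0.17 and -0.23 ± 0.08.

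**Figure D4:**
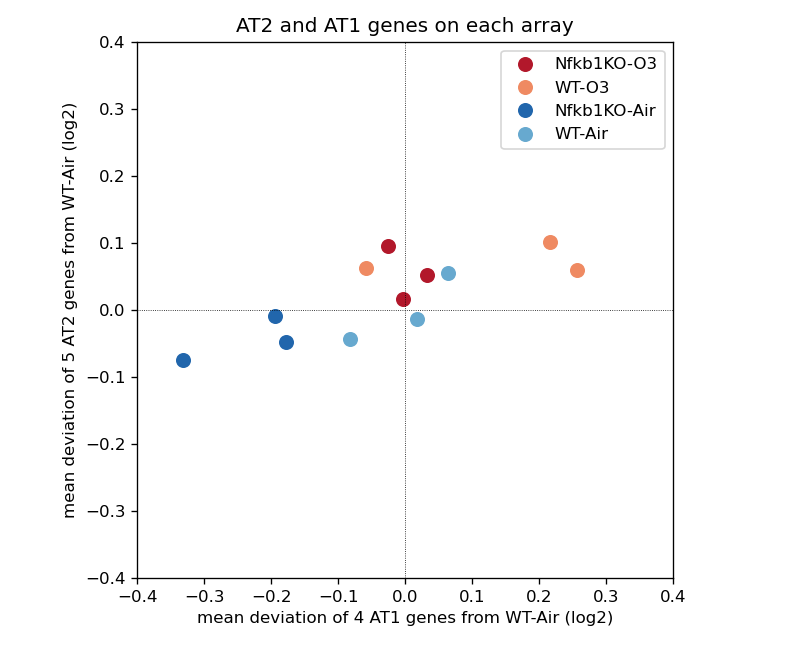
Mean log2 deviation from the WT-Air mean for the 4 AT1 genes (horizontal axis) and the 5 AT2 genes (vertical axis), 1 point per array, coloured by group. The 3 Nfkb1KO-Air arrays sit lowest on the AT1 axis, at -0.33 to -0.18, and the widest spread is that of the WT-O3 arrays, at -0.06 to 0.26. Pdpn, 1 of the 4 AT1 genes, spans -0.58 to 0.60 within WT-O3.

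Genotype alone called 0 of 9 members after O3, where 0.723% of all genes were called, and 0 of 9 in air, where 0.342% were. After O3, p was below 0.05 without adjustment for 0 of 9, against 9.43% of all genes. In air, p was below 0.05 without adjustment for Pdpn (-0.52 ± 0.24, adjusted p = 0.44), Aqp5 (-0.23 ± 0.09, adjusted p = 0.374) and Sftpc (-0.17 ± 0.07, adjusted p = 0.368), or 3 of 9 members against 11.3% of all genes. All Nfkb1KO-Air arrays were below all WT-Air arrays for these 3 genes and for Hopx (-0.09 ± 0.06), or 4 of 9 members against 7.26% of all genes. After O3 this held for Aqp5 (-0.11 ± 0.09) and Sftpb (-0.14 ± 0.07), against 9.76% of all genes. The 4 AT1 genes had negative differences in both settings, with medians of -0.08 after O3 and -0.16 in air, against -0.02 and -0.03 for the 5 AT2 genes. After O3 the signs depended on the scaling, since 3 of 4 AT1 genes were positive with arrays centred on their medians and 2 of 4 with the deposited scaling. In air all 4 AT1 and all 5 AT2 genes were negative with either of these scalings, whereas 2 of 5 AT2 genes were positive with quantile normalisation. The median over all genes in air was -0.20 with median centring and 0.04 with the deposited scaling.

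Averaged over both exposures, which was also added after the data were seen, 0 of 9 members were called between genotypes, against 1.98% of all genes. The values of Pdpn (-0.44 ± 0.17, adjusted p = 0.256) and Aqp5 (-0.17 ± 0.07, adjusted p = 0.283) were the farthest from 0, and p was below 0.05 without adjustment for these 2 alone, against 13.2% of all genes. Pdpn passed the threshold only without WT-O3 replicate 1, its lowest wild-type array (-0.62, adjusted p = 0.015).

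Other alveolar genes were taken from lists. Beside their O3 calls, 3.35% of all genes were called higher and 2.83% lower in Nfkb1-deficient mice, and 3.16% and 2.24% in wild-type mice. Of 12 further AT2 genes, Il33 and Ctsh rose in Nfkb1-deficient mice, and Ctsh and Il33 rose while Lgi3 fell in wild-type mice. Cathepsin H, encoded by Ctsh, is a lysosomal protease that takes part in processing SP-B and is also present in macrophages. Its log2 signal was 13.61, 13.61 and 13.53 in Nfkb1KO-O3 and 13.72, 13.85 and 13.62 in WT-O3 lungs, against 12.65, 12.96 and 12.88 in Nfkb1KO-Air and 12.89, 13.02 and 12.58 in WT-Air lungs. The groups were well apart, at 0.76 ± 0.11 (adjusted p = 0.00327) in Nfkb1-deficient mice and 0.90 ± 0.11 (adjusted p = 0.00121) in wild-type mice.

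Il33 encodes an alarmin cytokine that mouse AT2 cells hold in the nucleus. It lay at 12.35, 12.34 and 12.42 in Nfkb1KO-O3 and 12.20, 12.31 and 12.55 in WT-O3 lungs, against 11.69, 11.45 and 11.70 in Nfkb1KO-Air and 11.70, 11.44 and 11.79 in WT-Air lungs. The difference was 0.76 ± 0.11 in Nfkb1-deficient mice (adjusted p = 0.00324) and 0.71 ± 0.11 in wild-type mice (adjusted p = 0.00444), again with no overlap. Lgi3, a secreted protein gene, was at 10.63, 10.54 and 10.63 in Nfkb1KO-O3 and 10.61, 10.53 and 10.42 in WT-O3 lungs, against 10.57, 10.59 and 10.82 in Nfkb1KO-Air and 10.91, 11.22 and 11.02 in WT-Air lungs. It fell by 0.53 in wild-type mice (SE 0.10, adjusted p = 0.0116), and the 3 other groups lay below WT-Air.

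Of 15 further AT1 genes, Krt7, a keratin of simple epithelia, rose in both genotypes and no other was called. Its log2 signal was 13.30, 13.17 and 13.16 in Nfkb1KO-O3 and 13.29, 13.43 and 13.37 in WT-O3 lungs, against 12.23, 12.50 and 12.59 in Nfkb1KO-Air and 12.65, 12.68 and 12.46 in WT-Air lungs. The difference was 0.77 ± 0.10 in each (adjusted p = 0.00126 and 0.00122). List medians in Nfkb1-deficient and wild-type mice were -0.02 and 0.03 for the further AT2 genes and 0.14 and -0.11 for the further AT1 genes, beside -0.01 and -0.03 over all genes. With arrays centred on their medians they were 0.44 and 0.09 for AT2 and 0.53 and -0.02 for AT1, beside 0.25 and 0.02 over all genes.

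Genes of lamellar bodies and surfactant proteases numbered 11, of which Ctsh was called in both genotypes, as above, and P2rx4, a lamellar body calcium channel, fell by 0.47 in wild-type mice (SE 0.12, adjusted p = 0.0451). Hps1, a subunit of a complex that builds lysosome-related organelles, was the single gene of the pathway lists called between genotypes. Its log2 signal was 8.05, 8.51 and 8.52 in Nfkb1KO-O3 lungs against 9.14, 9.36 and 9.20 in WT-O3 lungs, a difference of -0.88 ± 0.16 (adjusted p = 0.0201). In air it was at 8.80, 8.58 and 8.59 in Nfkb1-deficient lungs and 9.18, 8.88 and 9.18 in wild-type lungs (-0.42 ± 0.16, adjusted p = 0.329). Its call was kept in 16 of 24 alternatives and was lost without any 1 of the WT-O3 arrays or Nfkb1KO-O3 replicate 1. With its probe sets averaged the difference was -0.26 (adjusted p = 0.868).

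Of 16 lipid synthesis genes, Scap, the sterol sensor that escorts SREBP, rose in both genotypes (0.30 ± 0.08 in Nfkb1-deficient mice, adjusted p = 0.0486, and 0.39 ± 0.08 in wild-type mice, adjusted p = 0.0163). Its sign turned when its probe sets were averaged (-0.07 and -0.21). Of 10 genes of surfactant pool control and clearance, Bach2, a transcription factor needed for normal alveolar macrophages in mice, fell by 0.69 in Nfkb1-deficient mice (SE 0.14, adjusted p = 0.012). The macrophage cholesterol exporters Abcg1 and Abca1 fell in wild-type mice by 0.49 (SE 0.09, adjusted p = 0.0113) and by 0.74 (SE 0.19, adjusted p = 0.0443). Among 13 alveolar transcription factors, Nfia fell by 0.48 in Nfkb1-deficient mice (SE 0.11, adjusted p = 0.0218) and by 0.41 in wild-type mice (SE 0.11, adjusted p = 0.0478), and Cebpa, which supports AT2 maturation, fell by 0.64 in Nfkb1-deficient mice (SE 0.17, adjusted p = 0.0486). Several of these calls were weak: over 24 alternatives P2rx4, Cebpa and Nfia in wild-type mice kept theirs in 8 each, Abca1 in 10, Nfia in Nfkb1-deficient mice in 17, and Scap in 6 in Nfkb1-deficient and 18 in wild-type mice.

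Genes used as markers of transitional alveolar cells, the stretched keratin-rich state between AT2 and AT1 cells known from injured mouse lungs, were measured for 11 of 13 listed. Which lung cells gave the signal of these genes was not tested. In Nfkb1-deficient mice 4 of 11 rose, with a list median of 0.45, and in wild-type mice 6 of 11 rose, with a median of 0.73, and 0 fell in either. Of all genes, 3.35% and 3.16% were called higher. With arrays centred on their medians these list medians were 0.93 and 0.77, beside 0.25 and 0.02 over all genes. The order of the genotypes thus turned only where the median of all genes was itself higher in Nfkb1-deficient mice. With the deposited scaling the list medians were 0.56 and 0.70, beside -0.12 and -0.05 over all genes. Cldn4, a tight junction claudin, was at 9.84, 10.12 and 9.65 in Nfkb1KO-O3 and 10.19, 10.22 and 10.08 in WT-O3 lungs, against 9.26, 9.19 and 8.82 in Nfkb1KO-Air and 8.75, 8.57 and 8.73 in WT-Air lungs. It rose 1.72-fold in Nfkb1-deficient mice (0.78 ± 0.14, adjusted p = 0.00885) and 2.80-fold in wild-type mice (1.48 ± 0.14, adjusted p = 0.000304).

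Krt18, a keratin of simple epithelia, was at 12.82, 12.85 and 12.81 in Nfkb1KO-O3 and 13.05, 13.22 and 13.15 in WT-O3 lungs, against 12.46, 12.58 and 12.46 in Nfkb1KO-Air and 12.39, 12.21 and 12.30 in WT-Air lungs. It rose by 0.32 ± 0.07 in Nfkb1-deficient mice (adjusted p = 0.0222) and by 0.85 ± 0.07 in wild-type mice (adjusted p = 9.92e-05). The difference between these changes, -0.52 ± 0.10, was not called (adjusted p = 0.196), nor was that of Cldn4 (-0.70 ± 0.20, adjusted p = 0.645). Plaur, the urokinase receptor, rose in both (0.97 ± 0.18 and 1.07 ± 0.18, adjusted p = 0.0104 and 0.00667), and Cdkn1a, the cell cycle inhibitor p21, rose in Nfkb1-deficient mice (1.37 ± 0.30, adjusted p = 0.0189). Krt8, the usual partner of Krt18 in keratin filaments, and Krt19, another keratin of simple epithelia, rose in wild-type mice by 0.72 ± 0.11 and 0.90 ± 0.14 (adjusted p = 0.00353 and 0.00378). With arrays centred on their medians, 3 of 11 were called in Nfkb1-deficient and 1 of 11 in wild-type mice, beside 289 and 76 of 17569 genes called higher. Krt18 in Nfkb1-deficient mice kept its call in 15 of 24 alternatives.

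**Figure D5:**
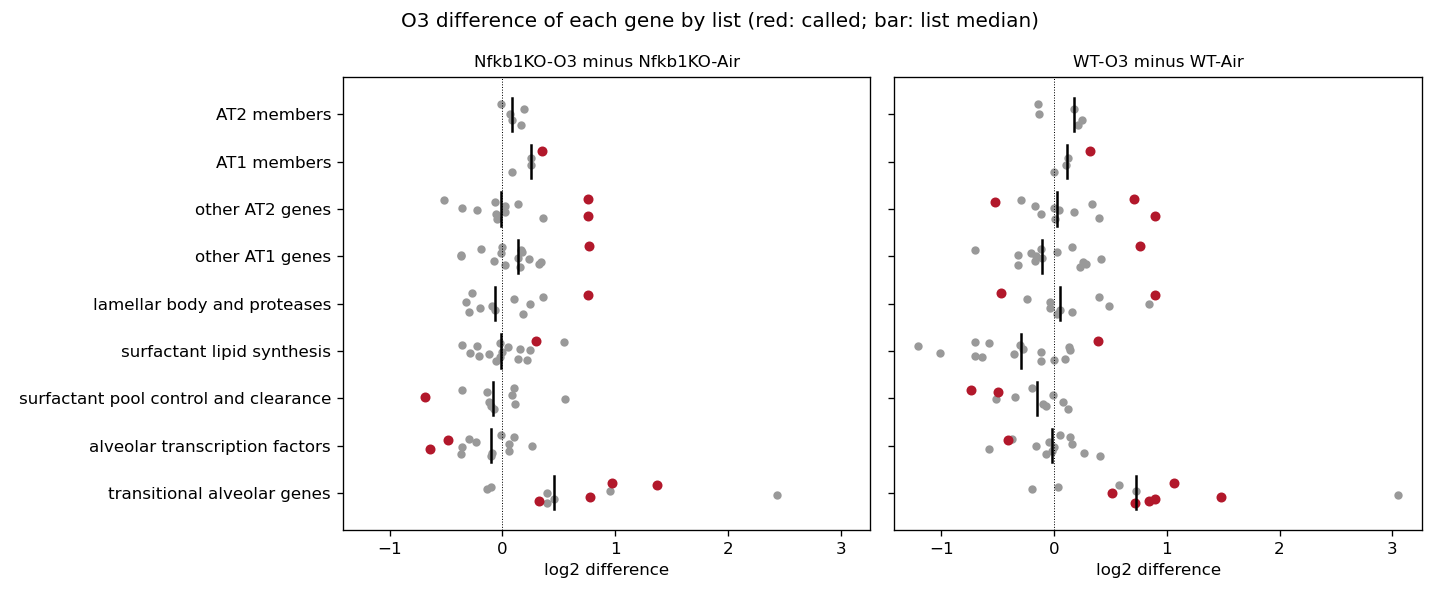
O3 against air for each gene of the 9 lists: log2 difference (horizontal axis) in Nfkb1-deficient mice on the left and wild-type mice on the right. Each point is a gene, red marks an adjusted p below 0.05, and the bar is the list median, which is 0.45 and 0.73 for the transitional genes and lies between -0.29 and 0.25 for every other list.

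Markers of other lung cells moved with O3 as well. The shares of all genes called higher and lower were 3.35% and 2.83% in Nfkb1-deficient mice, and 3.16% and 2.24% in wild-type mice. Of 6 alveolar macrophage markers, 2 (Marco and Chil3) rose in each genotype, and the summed normalised signal of all 6 was 20929.8 to 21918 in Nfkb1KO-O3 and 19857 to 21559 in WT-O3 lungs, against 15976 to 18865 in Nfkb1KO-Air and 15771 to 17776 in WT-Air lungs. In each genotype 4 of these 6 had positive and 2 had negative O3 differences. Chil3 was the brightest of them on every array and so weighed most in the sum. Of 6 ciliated cell markers, 5 fell in Nfkb1-deficient and 2 in wild-type mice, with sums of 6886 to 9829 in Nfkb1KO-O3 and 7751 to 10263 in WT-O3 lungs, against 13318 to 18014 and 12661 to 14419 in the air groups of the same genotypes. Club cell markers gave 0 of 6 calls in every comparison. Among structural cells, 2 of 7 blood endothelial and 1 of 6 fibroblast markers fell in Nfkb1-deficient mice and 1 of 7 and 0 of 6 in wild-type mice. Of 6 mature dendritic cell markers, 1 rose in Nfkb1-deficient and 2 in wild-type mice, with sums of 1164 to 2145 in Nfkb1KO-O3 and 2763 to 3411 in WT-O3 lungs, against 1089.6 to 1703 in Nfkb1KO-Air and 1645 to 2387 in WT-Air lungs. In each genotype 3 of these 6 had positive and 3 had negative O3 differences (medians -0.0005 and -0.01). Among them, Ccl17 lay at log2 10.05 to 10.59 in WT-O3 lungs, against 7.34 to 8.38 in WT-Air lungs. Of 8 NK and T cell markers, 0 were called for O3 in Nfkb1-deficient mice, and 3 fell in wild-type mice. Cardiac muscle markers were not called, though all 7 had negative O3 differences in each genotype (medians -0.91 and -1.12), and 0 of 6 skeletal muscle markers were called (medians 1.60 and -2.86). Of 5 neutrophil markers, 0 were called for O3 in either genotype. Between genotypes, 5 of 8 NK and T cell markers rose with Nfkb1 deficiency under O3 (sums of 3471 to 5441 in Nfkb1KO-O3 lungs, against 873 to 1096 in WT-O3 lungs) and 2 of 8 in air (3681 to 4855 in Nfkb1KO-Air lungs, against 1650 to 2279 in WT-Air lungs). Of all genes, 0.723% were called between genotypes after O3 and 0.342% in air, in either direction. Neutrophil markers were called higher in Nfkb1-deficient mice for 2 of 5 after O3 (sums of 2762 to 4174 in Nfkb1KO-O3 and 1256 to 1519 in WT-O3 lungs) and for 1 of 5 in air (2935 to 3609 in Nfkb1KO-Air and 1502 to 1929 in WT-Air lungs). Marco was lower in Nfkb1KO-Air than in WT-Air lungs (-1.76 ± 0.22, adjusted p = 0.00465). It was the only alveolar macrophage marker called there. Of the 6, 2 had positive and 4 had negative differences, and the sums of the 2 air groups overlapped. In these lists 0 markers lay at or below the filter limit on all arrays, and the part of these cells in the alveolar values was not tested.

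Members varied together only in part. Deviations from the group mean over the 12 arrays had a median Pearson r of 0.25 over the 36 pairs of members, of which 24 were positive. The closest pair was Sftpa1 and Sftpd (r = 0.86). For Sftpc the genes of above-median level with the most similar deviations were Exosc9, Taf6 and Lyz1 (r = 0.98, 0.95 and 0.93), and for Ager they were Ptrhd1, Smim1 and Gusb (r = 0.94, 0.94 and 0.93), out of 8783 genes. These correlations are descriptions over 12 arrays that share 1 normalisation, and none of these 6 genes is in the lists used here.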

How the data were processed

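Affymetrix Mouse Genome 430 2.0 arrays were processed by the authors with the MAS5 algorithm in Expression Console (versions not given in the sources used here). The deposited intensity of each probe set is linear and scaled per array to a trimmed mean of 500. Here a floor of 1 was set, the 64 control probe sets were put aside, and log2 values were quantile normalised. The filter kept 42559 probe sets that exceeded the 20th percentile (log2 4.37) on 1 or more arrays. Each gene was read from its brightest probe set among those with exactly 1 annotated symbol.

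All 12 arrays entered a limma 3.58.1 fit (R 4.3.3) with a mean for every group and a spread that follows signal level. Benjamini-Hochberg adjustment ran over 17569 genes, or over all probe sets where a probe set is named by its ID. The script was tested on simulated data. Each array was 1 mouse, so p-values measure the spread between mice, and the number of arrays limits precision: an exact two-sided test of 3 against 3 cannot go below 0.1. Quantile normalisation gives the brightest probe sets nearly the same values on every array, which can narrow the spread of most members.

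Members, lists and tests were chosen with earlier results of these data known. All members are described, as are the called genes of each pathway list, at most 4 per comparison by smallest p, and for Sftpc and Ager the 3 genes with the highest Pearson r. Alternatives changed the scaling, floor, filter, choice of probe set, variance model, array weights, groups in the fit, replicate block and arrays included.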

Additional observations from a re-analysis of the deposited data

How the results depend on the processing

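With arrays centred on their medians, the median of all genes itself moved to 0.25 for O3 in Nfkb1-deficient mice and -0.20 for genotype in air, and the medians of AT2 and AT1 genes were 0.546 and 0.716 for O3 in Nfkb1-deficient mice, 0.114 and 0.185 for O3 in wild-type mice, 0.371 and 0.451 for O3 over both genotypes, 0.137 and 0.0432 for genotype after O3, -0.378 and -0.521 for genotype in air, -0.121 and -0.231 for genotype over both exposures, and 0.515 and 0.548 for the interaction. With the deposited scaling they were 0.175 and 0.344 for O3 in Nfkb1-deficient mice, -0.142 and -0.285 for genotype in air, and 0.215 and 0.247 for the interaction, while the AT2 median was 0.0427 for O3 in wild-type mice and 0.0730 for genotype after O3. Averaging the probe sets of a gene gave AT2 medians of 0.0181, 0.0474 and 0.0328 for O3 in Nfkb1-deficient mice, in wild-type mice and over both. The AT1 median for O3 in Nfkb1-deficient mice was 0.183 with array weights and 0.176 without Nfkb1KO-Air replicate 1 and WT-Air replicate 3 together, and array weights gave 0.0308 for the AT1 interaction.

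The number of members called for O3 in wild-type mice was 0 with median centring, with the deposited scaling, with no trend in the spread (Hopx adjusted p = 0.0689) and without both of those arrays (Hopx adjusted p = 0.056), and 2 with the stricter filter or array weights. In Nfkb1-deficient mice it was 0 with median centring (Hopx 0.79, adjusted p = 0.12) and 2 with array weights (Sftpd adjusted p = 0.047). Over both genotypes it was 0 with median centring and 1 with the deposited scaling, with no trend or without both arrays. Of all genes, median centring left 874 called higher over both genotypes, against 1352 in the main fit. Hopx kept its call in 24 of 25 alternatives in Nfkb1-deficient mice and in 17 of 25 in wild-type mice.

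With 1 array left out at a time, members called ranged over 1 to 1 for O3 in Nfkb1-deficient mice, 0 to 3 in wild-type mice, 1 to 5 over both genotypes and 0 to 1 for genotype over both exposures. AT2 medians ranged over 0.129 to 0.228 for O3 in wild-type mice, -0.0803 to 0.0187 for genotype in air and -0.0363 to 0.0627 for the interaction. AT1 medians ranged over 0.176 to 0.297 for O3 in Nfkb1-deficient mice, 0.0552 to 0.231 in wild-type mice and 0.118 to 0.267 over both genotypes. The cause of these changes was not tested.

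Replicate numbers did not pair the arrays: same-numbered arrays had correlations of -0.0836 to 0.107, and 1 of 12 pairs was over 0.1. With the replicate number as a block, Hopx stayed called in both genotypes, and Sftpb over both genotypes lost its call (0.16, adjusted p = 0.0577). An ordinary t-test of genotype in air, run on the values normalised here, gave 0 of 9 members below the threshold. Of all genes it gave 1182 before and 0 after Benjamini-Hochberg adjustment. Keeping control probe sets in the normalisation, and both comparisons averaged over 6 arrays, were chosen after seeing the data.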
